A study of Homo sapiens with 8 samples.

Results

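5-FU (5-fluorouracil) alone was compared with vehicle in HCT-116 cells, an established human colorectal cancer line, across all genes with enough reads to test. Of the 8 libraries of the study, 4 belong to the comparison, and 15510 of the 23544 genes in the tables of the whole series were tested. The 5-FU then DMSO cells had 40 µM 5-FU for 12 h, were washed, and were then kept 4 h in medium with DMSO, the solvent (n = 2 libraries). The DMSO then DMSO cells had DMSO in both steps (n = 2). In the other 4 libraries the second 4 h step held 2.5 µM 3-MB-PP1, a purine-analogue inhibitor of kinases engineered to accept it, after 12 h of 5-FU (n = 2) or of DMSO (n = 2). They served to estimate the spread and, near the end, to look at the same drug in separate libraries. The labels name neither a kinase allele in these cells nor separate cultures behind the 2 libraries of a group, so p-values measure the spread between libraries, which may be technical. Every value below is from 1 cell line, sampled 4 h after the drug was washed away.

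5-FU is a fluorinated uracil used against colorectal cancer. Cells turn it into a deoxynucleotide that blocks thymidylate synthase, which makes the thymine nucleotide of DNA, and into nucleotides that are built into RNA and DNA. HCT-116 cells keep a working p53, the transcription factor that damage stabilises, and they are deficient in mismatch repair. Rising p53 targets and falling cell cycle genes are the textbook response to the drug, and lists of them serve here as context. A gene outside the context lists is only one that is not on them. It may still respond to p53 or change with the cell cycle, which was not tested.

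The 4 libraries held 14945089 and 16559619 gene counts (5-FU) and 12775414 and 13296060 gene counts (DMSO). Values are counts scaled to the library size (CPM), a fold change is 5-FU then DMSO over DMSO then DMSO, and a gene rose or fell where its adjusted p in edgeR's quasi-likelihood test was under 0.05. At that threshold 44.0% of the genes tested were called (6828), 21.4% higher (3316) and 22.6% lower (3512). Every count of list members below is to be read beside these shares. The change passed 2-fold for 430 of the rises and 629 of the falls, and the median log2 fold change of all genes tested was 0.0032. Scaling to the ERCC spike-ins, synthetic RNAs that took 2.52% to 4.16% of the counts in the 4 libraries, moved that median to 0.125 and left 243 calls (93 higher, 150 lower). Of the 347 called genes that the naming rule picked, 73 were also called with that scaling, HMOX1, SULF2, LAMB3, PLXNB3, MSH6 and INSIG1 among them; LMNB1, EZH2, DNMT1, SCD and KRT19 were not, and every one kept its direction. The summed level of 10 colorectal epithelium markers was 4963 and 4925 CPM in the 5-FU libraries, against 2782 and 2861 CPM in the DMSO libraries; most of it was keratin, CDX1 had no count and VIL1 had 0 to 2. The 12 markers of fibroblasts, leukocytes and endothelium summed to 42.4 and 41.1 CPM with 5-FU and 38.7 and 35.4 CPM with DMSO, and COL1A2, DCN, LUM, CD3E and CDH5 had no count in any of the 4.

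The context lists moved as large blocks. Of 110 tested p53 targets 91 rose and 6 fell (median log2 fold change 1.04), and of 281 tested cell cycle, replication and histone genes 279 fell and 1 rose (median −1.65). Among these, CDKN1A, the CDK inhibitor p21, had 1604 and 1509 CPM in the 5-FU libraries, against 194 and 199.9 CPM in the DMSO libraries. TYMS, which encodes the enzyme 5-FU blocks, had 99.97 and 102 CPM in the 5-FU libraries, against 119 and 128 CPM in the DMSO libraries (log2 fold change −0.29, SE 0.11, adjusted p = 0.0311), a call that was lost with DESeq2, with spike-in scaling and on leaving out any 1 of the 4 libraries. Of the genes that handle the drug, TK1 (thymidine kinase, −0.88), SLC29A1 (a nucleoside transporter, −0.47) and UCK2 (uridine-cytidine kinase, −0.29) fell. UPP1, a uridine phosphorylase, was called higher (log2 fold change 0.67, SE 0.26, adjusted p = 0.0395) although its groups overlapped, with 5.59 and 3.64 CPM in the 5-FU libraries, against 2.05 and 3.70 CPM in the DMSO libraries, and TYMP (thymidine phosphorylase, 0.26) was not called. DPYD, which starts the breakdown of 5-FU, had 2.27 and 2.79 CPM in the 5-FU libraries, against 2.13 and 2.77 CPM in the DMSO libraries, and those ranges overlapped.

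Outside those lists the largest well-measured rises were in genes of heme breakdown, cell surface sulfation and axon guidance receptors. Skin barrier genes such as HRNR also rose, but from levels near the floor. HMOX1, the stress-induced heme oxygenase, had 129 and 128 CPM in the 5-FU libraries, against 19.4 and 20.9 CPM in the DMSO libraries (log2 fold change 2.67, SE 0.074, adjusted p = 7.84e-20). SULF2, which removes sulfate groups from heparan sulfate outside the cell, had 81.7 and 77.8 CPM in the 5-FU libraries, against 12.8 and 14.3 CPM in the DMSO libraries (log2 fold change 2.56, SE 0.085, adjusted p = 2.01e-18). ARRDC4, an alpha arrestin that lowers glucose uptake, had 57.2 and 52.1 CPM in the 5-FU libraries, against 9.05 and 10.5 CPM in the DMSO libraries (log2 fold change 2.48, SE 0.10, adjusted p = 1.09e-16). In each of the 3 the groups did not overlap, which the naming rule required. Of the 3316 genes that rose, 3311 had groups that did not overlap, and so did 69.7% of all genes tested, in either direction. Of 5 alpha arrestins listed, a family looked up after the values were seen, 1 was too low to test. The other 4 rose, beside 21.4% higher over all genes tested. Their log2 fold changes were 0.30 (ARRDC2), 0.46 (ARRDC1), 0.63 (ARRDC3) and 2.48 (ARRDC4). No value is given here for any other alpha arrestin. INPP5D, the lipid phosphatase SHIP1, had 13.2 and 12.99 CPM in the 5-FU libraries, against 2.68 and 2.46 CPM in the DMSO libraries. BTBD19, LHX5 (a homeobox factor of the brain) and GRIN2C (a glutamate receptor subunit) rose at lower levels, with log2 fold changes of 2.65, 2.26 and 2.19.

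**Figure D1:**
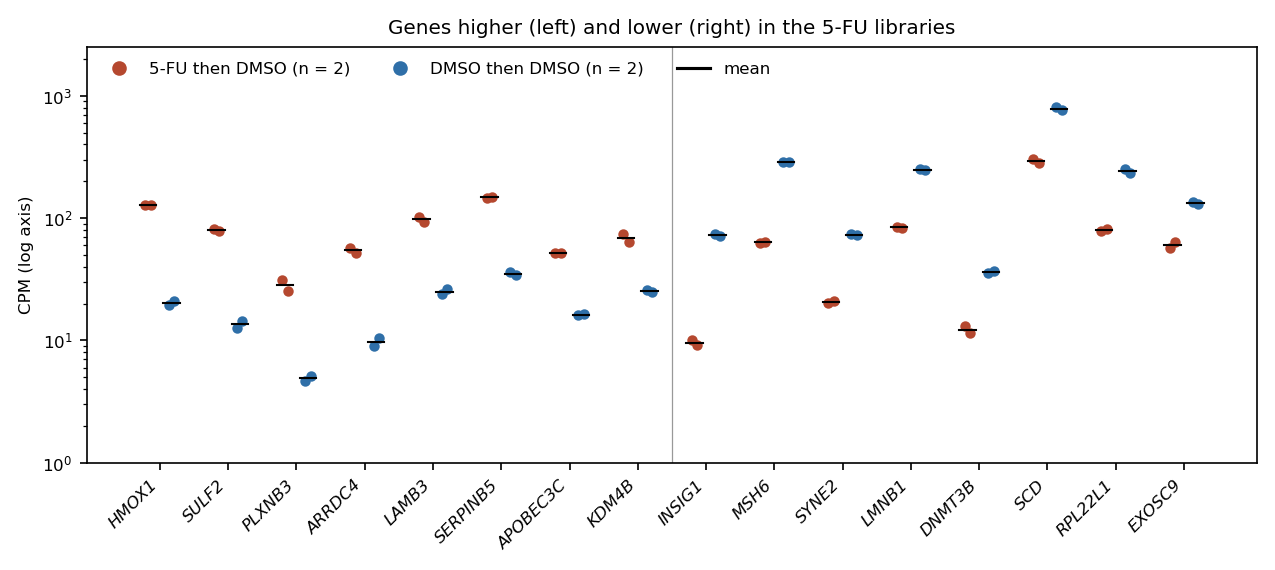
CPM on a log axis in each of the 4 libraries (points; 5-FU then DMSO left of DMSO then DMSO, n = 2 each) with the group mean (line), for 8 genes that rose and 8 that fell. In all 16 the groups are apart, as in 3311 of the 3316 genes that rose and 3510 of the 3512 that fell. Over all genes tested, called or not, the groups are apart in 69.7%. HMOX1 lies at 129 and 128 CPM with 5-FU and 19.4 and 20.9 CPM with DMSO.

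HMOX1 stood in a wider group of heme, iron storage and antioxidant genes, of which 14 of 20 rose and 0 fell (median log2 fold change 0.41; the list was put together after the values were seen). FTH1, the ferritin heavy chain that stores iron, had 1349 and 1456 CPM in the 5-FU libraries, against 851 and 814 CPM in the DMSO libraries (log2 fold change 0.75, SE 0.061, adjusted p = 1.18e-10). FTL, the light chain, rose by less (log2 fold change 0.43), as did the glutathione synthesis subunit GCLM (0.62) and the thioredoxin reductase TXNRD1 (0.54). NQO1, a classic antioxidant response gene, had a log2 fold change of 0.16, and SLC7A11, the cystine carrier, one of 0.04 that was not called. HMOX1 was therefore far from the other members, which lay between −0.07 and 0.82.

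Genes of the contact between epithelial cells and their basement membrane rose together. Laminin-332 is the matrix protein that hemidesmosomes bind, through the integrins α6β4 and α3β1. Of 10 genes of laminin-332 and the hemidesmosome, a list put together after the values were seen, 9 rose and none fell (median log2 fold change 1.04). LAMB3, the β3 chain, had 103 and 92.5 CPM in the 5-FU libraries, against 23.8 and 26.1 CPM in the DMSO libraries (log2 fold change 1.97, SE 0.083, adjusted p = 1.84e-16). LAMA3, the α3 chain, had 27.4 and 27.9 CPM in the 5-FU libraries, against 9.45 and 8.86 CPM in the DMSO libraries (log2 fold change 1.59, SE 0.11, adjusted p = 7.08e-12). Both chains were higher in both 5-FU libraries than in either DMSO library. Of the laminin receptors, ITGA3 rose by 1.20 on the log2 scale, ITGB4 by 0.73 and ITGA6 by 0.32. The plaque protein PLEC (plectin, 1.03) and the transmembrane collagen COL17A1 (1.28) rose as well, and the plaque protein DST was not called (0.03).

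Wider lists also held more rises than falls. Among integrins and laminins 19 of the 35 tested members rose and 3 fell (median log2 fold change 0.39). That list shares genes with the one above, LAMB3, LAMA3 and ITGA3 among them, so the 2 counts are not separate. Among matrix proteins and matrix proteases 20 of the 42 tested members rose and 5 fell (median log2 fold change 0.24). The shares over all genes tested were 21.4% higher and 22.6% lower. SERPINB5 (maspin, a serpin of epithelia) had 147 and 149.7 CPM in the 5-FU libraries, against 35.9 and 34.4 CPM in the DMSO libraries (log2 fold change 2.08, SE 0.065, adjusted p = 7.3e-19). PLAU, the protease urokinase, had 90.7 and 84.6 CPM in the 5-FU libraries, against 30.9 and 33.5 CPM in the DMSO libraries (log2 fold change 1.44, SE 0.072, adjusted p = 6.49e-15), and the urokinase receptor PLAUR rose too (1.36). Against these, LAMA2, the laminin α2 chain of muscle, fell (log2 fold change −0.93), and so did the protease ADAM19 (−0.54).

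**Figure D2:**
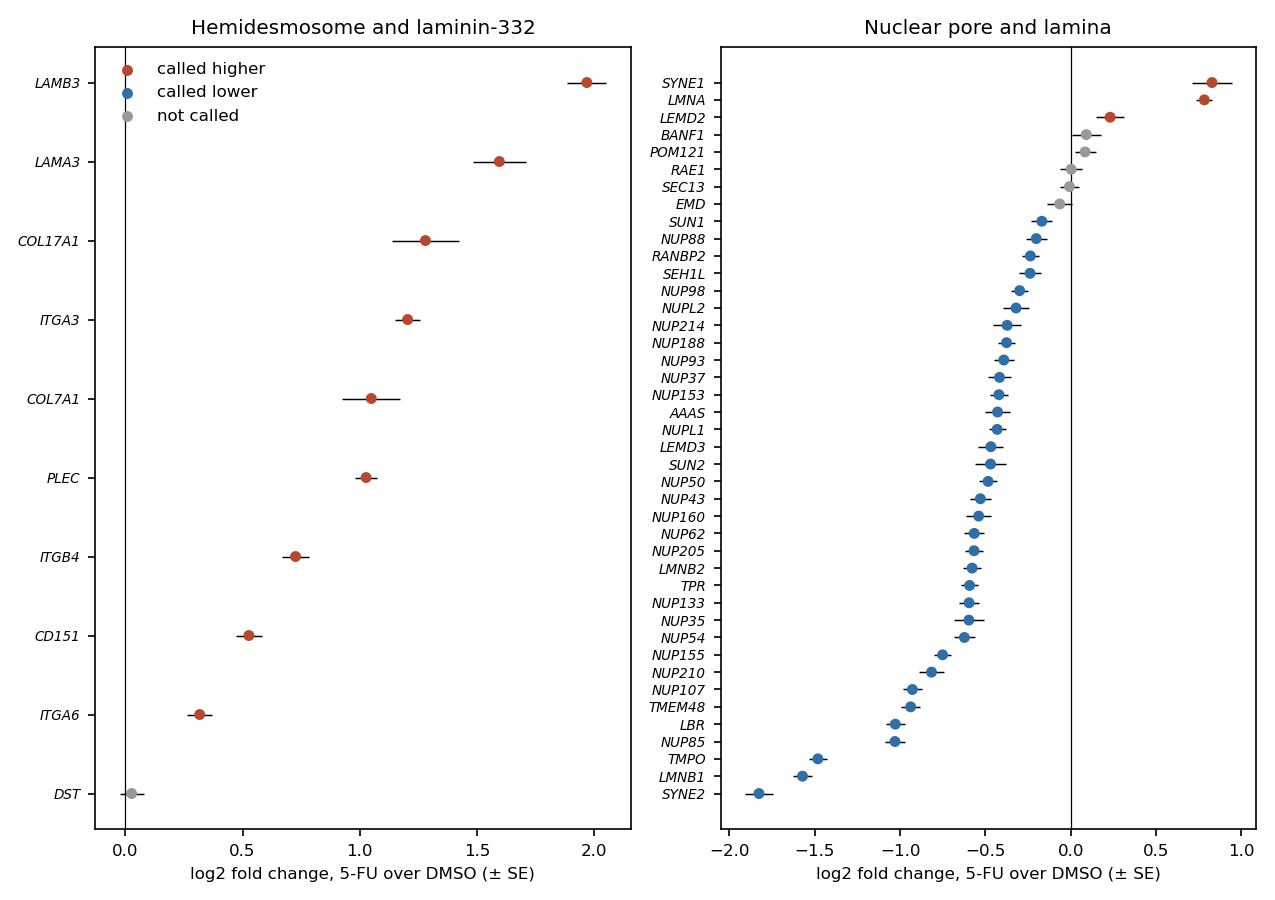
log2 fold change, 5-FU then DMSO over DMSO then DMSO, with its SE (bars), for the members of 2 lists (left and right), ordered by value and coloured by call. Of the 10 hemidesmosome and laminin-332 genes, 9 were called higher, and of the 42 nuclear pore and lamina genes 34 were called lower.

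Receptors first known from axon guidance, which epithelia use for contact and repulsion, changed unevenly. Plexins are the receptors of semaphorins. Of semaphorins, plexins, netrins and slits, 18 of the 34 tested members rose and 5 fell (median log2 fold change 0.32). Over all genes tested 21.4% rose and 22.6% fell. PLXNB3 had 31.4 and 25.2 CPM in the 5-FU libraries, against 4.64 and 5.16 CPM in the DMSO libraries (log2 fold change 2.52, SE 0.15, adjusted p = 1.27e-13), and the other B plexins PLXNB1 and PLXNB2 rose by 1.34 and 0.93 on the log2 scale. The ligands SEMA7A (1.47) and SEMA3B (1.31) rose, as did the co-receptor NRP1 (0.87), and the netrin receptor UNC5A fell (log2 fold change −1.45, SE 0.25, adjusted p = 2.96e-05). Ephrins and Eph receptors as a list were near the share over all genes: 5 of 16 rose (31.2%) and 3 fell (18.8%), and the median of 0.00262 turned negative in 4 other settings. Single members differed. EFNB1 (ephrin-B1) had 83.0 and 84.5 CPM in the 5-FU libraries, against 27.7 and 26.0 CPM in the DMSO libraries (log2 fold change 1.64, SE 0.074, adjusted p = 7.15e-16), and the receptor EPHA2, a p53 target in some cells, had 445 and 436 CPM in the 5-FU libraries, against 156 and 173 CPM in the DMSO libraries. EFNA1, a ligand of EPHA2, rose as well (1.31), whereas EFNA2 fell (−1.41).

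Most of the tested keratins rose, and lists of cell-to-cell contacts were mixed. Of keratins 6 of the 9 tested members rose and 1 fell (median log2 fold change 0.80), with KRT19 at 1109 and 1037 CPM in the 5-FU libraries, against 410.3 and 454 CPM in the DMSO libraries (log2 fold change 1.31, SE 0.051, adjusted p = 4.41e-17). KRT8 and its partner KRT18, which overlap on opposite strands so that reads could be shared between them, rose by 0.80 and 0.69 on the log2 scale. KRT15, a keratin of basal epithelium, was higher at a low level (14.2 and 13.3 CPM in the 5-FU libraries, against 3.31 and 4.16 CPM in the DMSO libraries). The skin barrier genes HRNR (hornerin) and ABCA12, a lipid carrier of the outer skin, reached 8.86 and 8.38 CPM and 3.26 and 3.28 CPM with 5-FU, against 0.866 and 0.770 CPM and 0.551 and 0.0770 CPM with DMSO, while 45 of the 55 cornified envelope genes in the tables were too low to test. Of desmosome genes 7 of the 13 tested members rose and 3 fell (median log2 fold change 0.17), led by plakoglobin, JUP (0.92), and of tight junction genes 9 of the 26 tested members rose and 3 fell (median log2 fold change 0.08). Of 7 tested connexins, the gap junction channels, a list put together after the values were seen, 4 rose and 1 fell, beside 21.4% higher and 22.6% lower over all genes tested.

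Histone methylation enzymes changed in both directions. Of these and the demethylases 21 of the 57 tested members rose and 16 fell (median log2 fold change 0.03), beside 21.4% higher and 22.6% lower over all genes tested. KDM4B, which removes repressive methyl groups from histone H3, had 74.3 and 63.6 CPM in the 5-FU libraries, against 25.9 and 24.8 CPM in the DMSO libraries (log2 fold change 1.44, SE 0.091, adjusted p = 8.99e-13). KDM5B, which acts on a mark of active promoters, and KDM6B, which acts on the Polycomb mark, rose by 1.22 and 1.15 on the log2 scale. SUV39H1, a methyltransferase of heterochromatin, fell, with 11.2 and 11.8 CPM in the 5-FU libraries, against 28.7 and 29.3 CPM in the DMSO libraries (log2 fold change −1.33, SE 0.10, adjusted p = 6.47e-11), and its relative SUV39H2 fell too (−0.78).

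A few genes of innate and adaptive immunity changed by more than the medians of their lists. TAP1, the peptide pump of the MHC class I pathway, had 122 and 122.6 CPM in the 5-FU libraries, against 43.7 and 40.0 CPM in the DMSO libraries (log2 fold change 1.55, SE 0.067, adjusted p = 3.03e-16). Of that pathway 11 of the 29 tested members rose (37.9%) and 6 fell (20.7%), with a median log2 fold change of 0.23. The shares over all genes tested were 21.4% higher and 22.6% lower. HLA-B (0.47) and HLA-E (0.48) rose, and the natural killer cell ligand MICB fell (−0.75); reads of HLA genes can be shared between near-identical copies. Of innate immune sensors and signalling genes 10 of the 49 tested members rose (20.4%) and 7 fell (14.3%), with a median log2 fold change of 0.08. The inflammasome sensor NLRP1 rose (log2 fold change 1.78, SE 0.18, adjusted p = 1.04e-08). OAS3, a sensor of double-stranded RNA, fell, with 15.9 and 15.8 CPM in the 5-FU libraries, against 47.95 and 42.4 CPM in the DMSO libraries (log2 fold change −1.51, SE 0.097, adjusted p = 1.09e-12). APOBEC3C, a cytidine deaminase of single-stranded DNA, had 52.3 and 52.1 CPM in the 5-FU libraries, against 16.1 and 16.5 CPM in the DMSO libraries (log2 fold change 1.68, SE 0.083, adjusted p = 5.58e-15), and 4 of the 7 tested APOBEC3 genes rose, with none lower; copies of this family are also alike in sequence.

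Genes of energy supply changed by small amounts in many members. The counts stand beside 21.4% higher and 22.6% lower over all genes tested. Of 72 respiratory chain subunits, all tested, 33 rose and 2 fell, with a median log2 fold change of 0.13 and a highest value of 0.57 (NDUFA13, of complex I). NDUFA13 had 129 and 129 CPM in the 5-FU libraries, against 86.8 and 86.9 CPM in the DMSO libraries (log2 fold change 0.57, SE 0.060, adjusted p = 1.36e-08). Of the tricarboxylic acid cycle and glycolysis genes 21 of the 58 tested members rose and 10 fell (median log2 fold change 0.09). The glucose carrier SLC2A1 rose (0.91) and GAPDH, the glycolytic dehydrogenase often used as a stable standard, had 6258 and 5854 CPM in the 5-FU libraries, against 3884 and 4203 CPM in the DMSO libraries (log2 fold change 0.58, SE 0.043, adjusted p = 1.55e-11). The isocitrate dehydrogenases IDH1 (−0.86) and IDH2 (−0.89) fell. Of autophagy genes 21 of the 48 tested members rose and 4 fell (median log2 fold change 0.13), with the transcription factors TFEB and TFE3, which switch on lysosome genes, higher by 1.01 and 0.73.

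**Figure D3:**
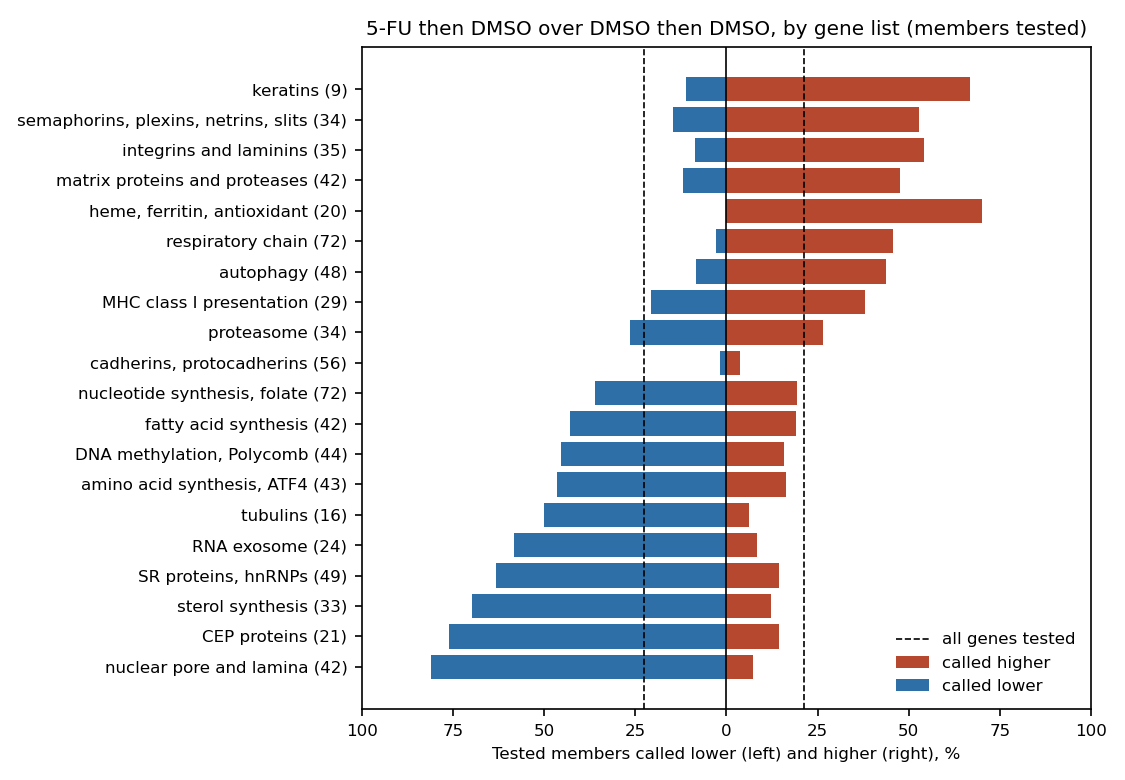
Share of the tested members of 20 gene lists called lower (left of 0) and called higher (right of 0), in percent, with the number tested in brackets; dashed lines mark 22.6% lower and 21.4% higher over all genes tested. The nuclear pore and lamina list is at 81.0% lower, and the respiratory chain at 45.8% higher and 2.78% lower.

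Among the falls outside the context lists, MSH6 was large and closely measured. MSH6 is a mismatch repair protein that helps to recognise mismatched bases, 5-FU in DNA among them. MSH6 had 62.7 and 63.9 CPM in the 5-FU libraries, against 285 and 286 CPM in the DMSO libraries (log2 fold change −2.17, SE 0.058, adjusted p = 4.8e-20). The groups were apart, which the naming rule required. Of other mismatch repair genes, examined after these values were seen, PMS1 fell (−0.71), and PMS2, MSH3 and MLH3 were not called (−0.16, 0.01 and 0.10). MSH6 overlaps FBXO11 on the opposite strand, and the sources used here do not say whether counting used strand.

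The start of MSH6 carries an E2F motif, the site of the factors that drive S phase genes, and the same letters lie at the starts of 2 chromatin genes that fell, EZH2 and DNMT1. The 3 genes, none of them on the cell cycle list, were picked by hand, and only windows that hold the motif are shown. Whether the motif had a part in their falls was not tested. The stretches are from RefSeq on GRCh38.p14, read 5′ to 3′ along the gene, with the match to TTTNNCGC on either strand in capitals. They lie at chr2:47783108-47783165, plus strand (MSH6), chr7:148884273-148884330, minus strand (EZH2) and chr19:10194938-10194995, minus strand (DNMT1).
MSH6: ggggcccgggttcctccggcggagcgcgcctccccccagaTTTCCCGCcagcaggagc
EZH2: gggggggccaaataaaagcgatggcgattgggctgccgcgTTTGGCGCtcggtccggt
DNMT1: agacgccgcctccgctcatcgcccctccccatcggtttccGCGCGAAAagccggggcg
The match begins at position 4 of the MSH6 transcript, at position 2 of EZH2 and at -2, just before the start, in DNMT1. TTTNNCGC, searched on both strands in windows from 250 bases before to 50 bases after the start, was in 6.89% of all 35116 windows. Taken by gene, with any window counting, it was in 12.5% of the 11753 genes tested that matched a window, in 33.0% of 233 matched cell cycle, replication and histone genes, in 23.1% of 39 DNA methylation and Polycomb genes and in 17.5% of 40 nuclear pore and lamina genes. The CCAAT box, the letters CCAAT, also searched on both strands, was in 34.6% of all windows and, by gene, in 42.9%, 72.1%, 46.2% and 47.5% of the same groups. A match of letters is not evidence of binding.

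Of DNA methylation and Polycomb genes 7 of the 44 tested members rose and 20 fell (median log2 fold change −0.10); with spike-in scaling the median was 0.02, and −0.10 relative to all genes. DNMT1, which copies DNA methylation after replication, had 215 and 205 CPM in the 5-FU libraries, against 424 and 421 CPM in the DMSO libraries (log2 fold change −1.01, SE 0.049, adjusted p = 4.36e-15), and DNMT3B, which sets new methylation, had 13.1 and 11.4 CPM in the 5-FU libraries, against 35.3 and 37.0 CPM in the DMSO libraries (log2 fold change −1.56, SE 0.10, adjusted p = 1.17e-12). EZH2, the Polycomb methyltransferase, had 54.0 and 55.2 CPM in the 5-FU libraries, against 129.6 and 132 CPM in the DMSO libraries (log2 fold change −1.26, SE 0.062, adjusted p = 5.12e-15), and its partners SUZ12 (−0.90) and EED (−0.34) fell less. EZH1, the other Polycomb methyltransferase, rose (0.62), and so did JARID2 (0.66). CBX2 fell (−1.49), and CBX7 and CBX8 were not called.

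The nuclear envelope fell as a group. All 42 nuclear pore and lamina genes were tested; 34 fell and 3 rose, with a median log2 fold change of −0.45. LMNB1 (lamin B1, part of the meshwork under the inner nuclear membrane) had 85.2 and 82.4 CPM in the 5-FU libraries, against 250.5 and 248 CPM in the DMSO libraries (log2 fold change −1.57, SE 0.057, adjusted p = 8.04e-18). LMNA, the gene of lamins A and C, went the other way, with 858 and 801 CPM in the 5-FU libraries, against 489 and 475 CPM in the DMSO libraries (log2 fold change 0.78, SE 0.046, adjusted p = 2.04e-13). TMPO (LAP2, which anchors lamins) and LBR (the lamin B receptor) fell by 1.48 and 1.03 on the log2 scale. SYNE2 had 20.3 and 20.8 CPM in the 5-FU libraries, against 73.9 and 72.1 CPM in the DMSO libraries (log2 fold change −1.83, SE 0.083, adjusted p = 8.43e-16), whereas SYNE1, which like SYNE2 links the nucleus to the cytoskeleton, rose (0.83). Of the pore subunits, NUP85 (−1.03), NUP107 (−0.93), NUP133 (−0.60) and NUP160 (−0.54) belong to the Y-shaped scaffold complex, and NUP210 (−0.82) and TMEM48 (−0.94) span the membrane; SEC13, RAE1 and POM121 were not called. Of centrosomal proteins named CEP, 16 of 21 fell and 3 rose, led by CEP55 (−1.76), which acts in the last step of cell division, and CEP152 (−1.44), which starts centriole copying.

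Tubulins supplied some of the largest losses in CPM. TUBB had 939.8 and 921 CPM in the 5-FU libraries, against 1778 and 1830 CPM in the DMSO libraries (log2 fold change −0.96, SE 0.042, adjusted p = 3.64e-16) and TUBA1B had 834 and 811 CPM in the 5-FU libraries, against 1273 and 1355 CPM in the DMSO libraries (log2 fold change −0.68, SE 0.043, adjusted p = 9.57e-13). Of 16 tested tubulin genes, a list put together after the values were seen, 8 fell and TUBB3, best known from neurons, was the 1 that rose (0.70); tubulin genes are alike in sequence and reads can be shared between them.

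MCM7, a subunit of the replicative helicase on chromosome 7, carries 3 microRNAs in an intron, and it had 200.0 and 196 CPM in the 5-FU libraries, against 601 and 593 CPM in the DMSO libraries (log2 fold change −1.59, SE 0.048, adjusted p = 4.07e-19). MIR17HG on chromosome 13, the host RNA of the related miR-17-92 cluster, had 20.3 and 20.4 CPM in the 5-FU libraries, against 29.4 and 24.1 CPM in the DMSO libraries (log2 fold change −0.39, SE 0.11, adjusted p = 0.00369). Mature microRNAs were not measured in these libraries. The 6 shown next are those whose seed (bases 2 to 8, in capitals) occurs in both hosts; sequences are from RefSeq.
hsa-miR-106b-5p: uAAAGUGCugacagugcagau
hsa-miR-93-5p: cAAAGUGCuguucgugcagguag
hsa-miR-17-5p: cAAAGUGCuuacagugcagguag
hsa-miR-20a-5p: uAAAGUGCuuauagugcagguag
hsa-miR-25-3p: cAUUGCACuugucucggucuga
hsa-miR-92a-3p: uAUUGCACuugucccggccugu
The first 4 share one seed and the last pair another; miR-106b, miR-93 and miR-25 lie in MCM7 and the others in MIR17HG.

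Of genes that process RNA, more fell than rose. The RNA exosome trims and degrades nuclear RNA, and loss of its activity is known to sensitise yeast to 5-FU. Of the exosome and nuclear decay genes 2 of the 24 tested members rose and 14 fell (median log2 fold change −0.22). EXOSC9 had 56.9 and 64.3 CPM in the 5-FU libraries, against 136 and 130.4 CPM in the DMSO libraries (log2 fold change −1.13, SE 0.070, adjusted p = 5.08e-13) and EXOSC8 had 29.9 and 28.5 CPM in the 5-FU libraries, against 54.6 and 67.0 CPM in the DMSO libraries; both overlap a gene on the opposite strand, CCNA2 in the case of EXOSC9, which is itself a cell cycle gene. Of SR proteins, hnRNPs and splicing kinases 7 of the 49 tested members rose and 31 fell (median log2 fold change −0.24). HNRNPF had 305 and 312 CPM in the 5-FU libraries, against 488 and 498 CPM in the DMSO libraries (log2 fold change −0.68, SE 0.048, adjusted p = 8.65e-12), and ESRP1, the splicing factor of epithelia, fell (−0.94). NEAT1, the RNA that builds nuclear paraspeckles, had 107 and 116 CPM in the 5-FU libraries, against 47.7 and 40.7 CPM in the DMSO libraries (log2 fold change 1.33, SE 0.083, adjusted p = 6.58e-13). Pseudouridine synthases, which 5-FU in RNA can trap, changed little: of 18 tested, with the box H/ACA proteins, 3 rose and 4 fell, between −0.38 (PUS7) and 0.35 (NOP10).

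Of 82 tested cytoplasmic ribosomal protein genes, 33 rose and 10 fell (median 0.07), and 2 paralogs stood apart. RPL22L1, a paralog of RPL22, had 78.9 and 82.1 CPM in the 5-FU libraries, against 253 and 232 CPM in the DMSO libraries (log2 fold change −1.59, SE 0.063, adjusted p = 5.37e-17). RPS27L, a p53 target and paralog of RPS27, had 203 and 222 CPM in the 5-FU libraries, against 109 and 98.9 CPM in the DMSO libraries (log2 fold change 1.03, SE 0.067, adjusted p = 1.47e-12).

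Most sterol synthesis genes fell. Sterol synthesis is switched on by the SREBP factors, which INSIG proteins hold back when sterols are plentiful, and INSIG1 is itself an SREBP target. INSIG1 had 9.99 and 9.23 CPM in the 5-FU libraries, against 73.5 and 71.8 CPM in the DMSO libraries (log2 fold change −2.92, SE 0.097, adjusted p = 1.72e-18), and INSIG2, which does not depend on SREBP in the same way, rose (0.94). Of sterol synthesis and uptake genes 4 of the 33 tested members rose and 23 fell (median log2 fold change −0.61). HMGCS1, at the entry to the pathway, had 42.4 and 42.2 CPM in the 5-FU libraries, against 106 and 97.4 CPM in the DMSO libraries (log2 fold change −1.26, SE 0.073, adjusted p = 1.33e-13), and the SREBP genes SREBF1 (−0.42) and SREBF2 (−0.59) fell by less. Of fatty acid and triglyceride genes 8 of the 42 tested members rose and 18 fell (median log2 fold change −0.20). SCD, which puts the double bond into stearate, had 301 and 281 CPM in the 5-FU libraries, against 802 and 763 CPM in the DMSO libraries (log2 fold change −1.43, SE 0.049, adjusted p = 3.7e-18), and ACSL3, which activates fatty acids, had 92.7 and 98.5 CPM in the 5-FU libraries, against 225 and 233 CPM in the DMSO libraries. ANGPTL4, an inhibitor of lipoprotein lipase, rose, with 22.7 and 18.1 CPM in the 5-FU libraries, against 4.88 and 4.47 CPM in the DMSO libraries (log2 fold change 2.12, SE 0.15, adjusted p = 1.16e-11), and so did ACER2, a ceramidase of the Golgi (2.06).

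Of nucleotide synthesis and folate genes 14 of the 72 tested members rose and 26 fell (median log2 fold change −0.06), with a median of 0.06 under spike-in scaling and −0.06 relative to all genes. PRPS2, which makes the activated ribose of nucleotides, had 43.4 and 45.6 CPM in the 5-FU libraries, against 105 and 103 CPM in the DMSO libraries (log2 fold change −1.22, SE 0.066, adjusted p = 2.85e-14). DCK (deoxycytidine kinase) and SHMT1, which feeds one-carbon units to thymidylate synthesis, fell by 1.22 and 1.13 on the log2 scale. Of amino acid synthesis genes and targets of ATF4, the factor of the amino acid response, 7 of the 43 tested members rose and 20 fell (median log2 fold change −0.20). Both lists stand beside 21.4% higher and 22.6% lower over all genes tested. AARS, the alanyl-tRNA synthetase, had 77.8 and 70.0 CPM in the 5-FU libraries, against 146 and 151 CPM in the DMSO libraries (log2 fold change −1.01, SE 0.073, adjusted p = 1.4e-11). DDIT4 (REDD1, an inhibitor of mTORC1, 1.72) and PPP1R15A (GADD34, 1.14), which other stresses also induce, rose.

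Several large groups were near or below the background. Of 34 proteasome subunits 9 rose and 9 fell, within −0.29 and 0.41 on the log2 scale. Of 464 tested zinc finger genes 103 rose and 63 fell. Of 56 tested cadherins and protocadherins 2 rose and 1 fell, and of 19 tested olfactory receptors none was called. Another 39 of the 95 cadherin and protocadherin genes in the tables were too low to test. The median log2 fold change of the tested ones moved from −0.02 to 0.22 without 5-FU then DMSO replicate 2. The few calls therefore do not show that the family was stable. The olfactory genes were counted at low levels, so that a change could not be seen at this depth unless it was large.

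Calls differed with the genomic span of the counted transcript on hg19. In the shortest of 5 bins of like size, up to 7.03 kb, 24.8% of genes rose and 14.1% fell. In the fourth bin, 34.3 to 78.1 kb, 18.4% rose and 30.0% fell, and in the longest bin 17.9% rose and 26.4% fell. The median log2 fold change was 0.085 in the shortest bin, −0.055 in the fourth and −0.038 in the longest. Without the context lists the shortest bin had 24.8% higher and 12.3% lower, and the fourth 18.3% higher and 28.7% lower. The median level also differed, 10.3 CPM in the shortest bin and 33.2 CPM in the fourth; its part in the pattern was not tested.

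**Figure D4:**
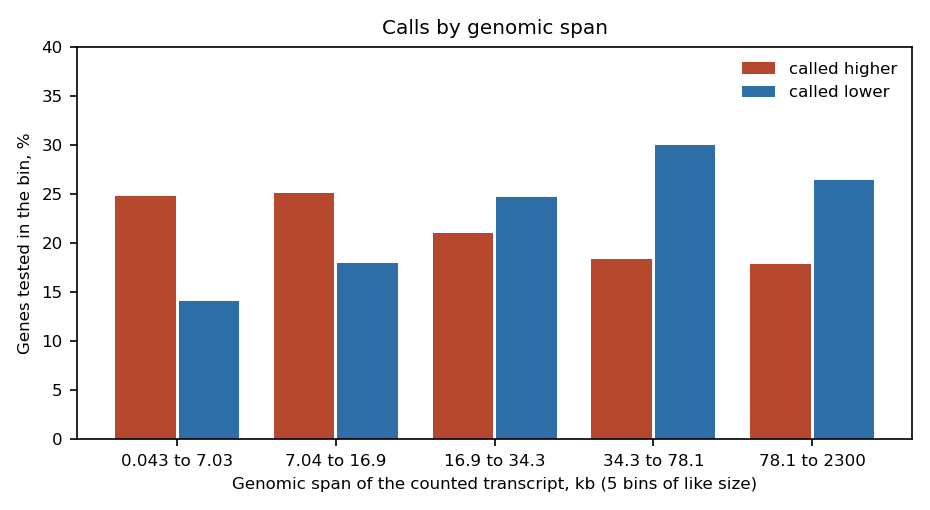
Share of genes called higher and called lower, in percent of the genes tested in each of 5 bins of genomic span in kb. Called lower is 14.1% in the shortest bin and 30.0% in the fourth, called higher 24.8% and 18.4%.

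The 4 libraries with 3-MB-PP1 in the second step gave the same drug a second set of libraries, none shared with the first. Of the 3316 genes that rose with 5-FU alone, 93.6% were also higher in 5-FU then 3-MB-PP1 than in DMSO then 3-MB-PP1, and of the 3512 that fell, 94.8% were also lower. Neither the same-sign share nor the libraries-apart share over all genes tested is given here for the 3-MB-PP1 libraries. With 5-FU alone, 69.7% of all genes tested had groups apart, in either direction. For genes outside the context lists with over 2-fold change, 84.4% of 372 rises and 93.4% of 378 falls had both libraries apart in the same direction. Their median log2 fold changes were 1.32 with 5-FU alone and 0.84 with 3-MB-PP1 for the rises, and −1.25 and −0.96 for the falls; these genes were picked on the first value of each pair, so no test is given. MSH6 (−2.17 alone, −2.08 with 3-MB-PP1), SULF2 (2.56 and 2.24) and SERPINB5 (2.08 and 2.35) were close in both. HMOX1 was at 1.22 and ANGPTL4 at 0.11 with 3-MB-PP1, against 2.67 and 2.12 with 5-FU alone; whether those differences exceed the spread was not tested.

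**Figure D5:**
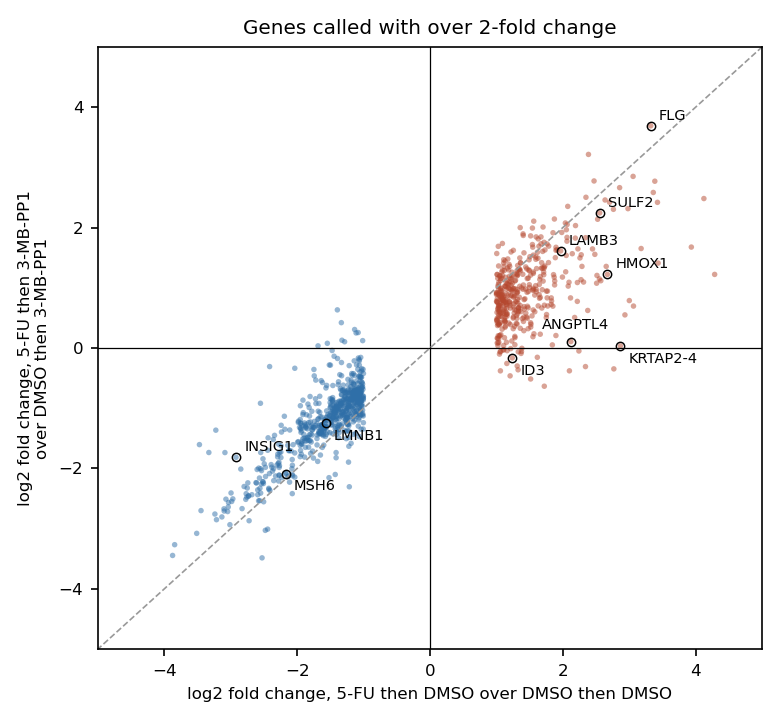
log2 fold change of 5-FU then 3-MB-PP1 over DMSO then 3-MB-PP1 (vertical) against that of 5-FU then DMSO over DMSO then DMSO (horizontal), for 1056 genes called with over 2-fold change with 5-FU alone; 3 genes lie outside the axes and the dashed line marks equal values. Most points lie in the quadrants of like sign; KRTAP2-4 is at 2.87 and 0.04.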

How the data were processed

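Total RNA was depleted of ribosomal RNA and sequenced from 1 end, per the labels' protocols; TopHat2 2.0.13 and hg19 are named in the submitters' processing notes, and the counting tool is not named there. Every deposited table lists raw read counts and, beside them, RPKM values by the authors for 41643 transcripts; strandedness is not given. A gene with several transcripts is represented by the 1 with the most counts, averaged over the 8 libraries. Of 6260 transcripts without a symbol, 5901 were named through RefSeq accessions. RPKM values entered no fold change or call of the reported fit. They served to derive the library totals behind the spike-in shares and the lengths that picked the longest transcript.

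All 8 libraries, as 4 groups, were fitted with edgeR 4.0.16 (quasi-likelihood, TMM scaling, filterByExpr, 4 residual degrees of freedom) in R 4.3.3, with Benjamini-Hochberg adjustment over the 15510 genes tested. CPM values use the TMM library sizes. The fit was tested on simulated counts. DESeq2 1.42.0 and limma 3.58.1 were alternatives. ERCC rows were kept out of library sizes.

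The comparison, its gene lists and motifs were chosen with earlier results of these data known, and the lists marked so after their values were seen. Named genes are the 15 largest rises and falls outside the context lists (mean of at least 1 CPM, groups apart, single locus), the 10 largest gains and losses in CPM, up to 4 called members of each list or family with its largest change against the majority, and the drug's own genes; other members of a list were named after their values were seen. With 2 libraries per group, no permutation test can pass the threshold. List counts have no test of their own. A few genes are not reported here.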

Additional observations from a re-analysis of the deposited data

Results flagged for a closer look

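In 4 named genes the 5-FU libraries were higher than their controls with DMSO in the second step and lower with 3-MB-PP1, with both libraries of each pair of groups apart. None of the 4 passed the threshold with 3-MB-PP1 (edgeR adjusted p = 0.0722 to 0.238), and the difference between the log2 fold changes was not tested. OVOL1, an epidermal transcription factor, was at 0.90 with 5-FU alone and −0.37 with 3-MB-PP1. ID3 was at 1.24 and −0.16, and ID1 at 1.05 and −0.10; both are inhibitors of helix-loop-helix factors. SOX9, a factor of intestinal crypts, was at 0.69 and −0.16.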

How the results depend on the processing

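The count of genes called was 6828, and it ranged over 5228 (DESeq2), 6791 (a mean of at least 1 CPM), 6825 (the 4 compared libraries alone, or the longest transcript), 6836 (no low count filter), 6838 (DESeq2 size factors) and 6842 (limma). Leaving out each library in turn gave 5402 to 6030. Spike-in scaling was the exception, with 243 calls, 93 higher and 150 lower, all of them over 2-fold, against 430 and 629 over 2-fold in the reported fit. The spike-in share differed inside a group, at 2.70% and 3.25% with 5-FU and 4.16% and 2.52% with DMSO, so that scaling adds this spread to every gene. Of 347 named genes called, 296 stayed called in every setting other than spike-in scaling in which they had an adjusted p, and none changed direction in any setting. KRT20, UPP1 and TYMS were among the 51 that lost the call at least once. Replicate numbers did not pair the libraries: deviations from the group means correlated by −0.063 to 0.044 between groups. With the replicate block 6872 genes were called and no named gene lost its call. Depth limits the genes near the filter: KRT20 had 13 and 2 counts with 5-FU and 25 and 13 with DMSO.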

Other observations

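Feedback genes of the MAPK pathway rose in 12 of 23 cases and fell in 2 (median log2 fold change 0.20). Over all genes tested 21.4% rose and 22.6% fell. The phosphatase gene DUSP5 had 282 and 282 CPM in the 5-FU libraries, against 107 and 129 CPM in the DMSO libraries (log2 fold change 1.26, SE 0.064, adjusted p = 8.82e-15), while ETV5, an ETS factor of the same pathway, fell (−0.70). HBEGF, a ligand of the EGF receptor, rose (1.34) and FGFR3 fell (−1.03). KCNN4, a calcium-activated potassium channel, had 72.2 and 65.9 CPM in the 5-FU libraries, against 25.3 and 28.5 CPM in the DMSO libraries (log2 fold change 1.36, SE 0.082, adjusted p = 3.17e-13). The zinc exporter SLC30A1 rose (1.05), and the cytokine receptor IL17RB fell (−1.72). Of 28 tested HOX cluster genes 8 rose (28.6%) and 1 fell (3.57%), beside 21.4% and 22.6% over all genes tested. HOXB4 had 34.0 and 34.5 CPM in the 5-FU libraries, against 17.0 and 18.7 CPM in the DMSO libraries (log2 fold change 0.94, SE 0.097, adjusted p = 1.14e-08).

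Shares of calls differed between chromosomes. On chromosome 19, 28.8% of 1105 genes tested rose and 11.1% fell, and on chromosome 13, 11.4% of 271 rose and 26.9% fell. The median genomic span was 13.7 kb on chromosome 19 and 38.9 kb on chromosome 13; the part of span in this was not tested. ZNF485, a zinc finger gene on chromosome 10 and so no part of that contrast, was counted at a very high level. It had 4479 and 3914 CPM in the 5-FU libraries, against 2562 and 2369 CPM in the DMSO libraries. For scale, GAPDH had 6258 and 5854 CPM in the 5-FU libraries. Whether all reads counted there came from ZNF485 transcripts was not tested.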
